A study of Mus musculus with 9 samples.

Results

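Triglyceride is built by a short chain of enzymes, and PPARγ binding to 7 of their genes was followed over the day in interscapular brown adipose tissue (iBAT) of mice. The genes were Gpam, Gpat3 and Gpat4 for the first acylation, Agpat2 for the next, Lpin1 for the removal of phosphate, and Dgat1 and Dgat2 for the last acylation. Chromatin immunoprecipitation followed by sequencing (ChIP-seq) with a PPARγ antibody was performed every 3 h from ZT0 to ZT21, at 8 time points, where ZT (zeitgeber time) counts hours from lights on and ZT12 is the onset of the dark phase. All mice were non-fasted, untreated male C57BL/6J mice, 10 weeks old, fed chow in a light phase and a dark phase of 12 h each, and according to the labels each library came from the iBAT of 8 pooled mice. Each time point thus had 1 library (n = 1), with no replicate, so that the spread between animals was not measured and the error given beside a count covers counting only. An input library of ZT12 was not analysed here.

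Peaks were taken as belonging to these genes where their midpoint lay in a fixed window of the mm10 genome around each gene. The windows were chr19:55040000-55150000 for Gpam, chr5:100830000-100915000 for Gpat3, chr8:23150000-23240000 for Gpat4, chr2:26580000-26620000 for Agpat2, chr12:16520000-16680000 for Lpin1, chr15:76490000-76530000 for Dgat1 and chr7:99130000-99230000 for Dgat2. They held 87 of the 66066 peaks in the table, namely 11 at Gpam, 10 at Gpat3, 12 at Gpat4, 7 at Agpat2, 22 at Lpin1, 2 at Dgat1 and 23 at Dgat2. Peaks are numbered within each window in chromosome order. The midpoint of 44 of them lay within the gene itself, and for 64 the nearest curated RefSeq start site was that of the gene, so that 23 lay nearer to the start of a neighbour such as Egfl7, Ntsr2, Uvrag or Mogat2. The gene starts in the RefSeq annotation are 55127238 (outer) and 55099477 (inner) for Gpam, 16610966 (outer) and 16589770 (inner) for Lpin1, 100846229 for Gpat3, 23208453 for Gpat4, 26604417 for Agpat2, 76511994 for Dgat1 and 99182713 for Dgat2, and Gpat3 alone lies on the plus strand. Within 10 kb outside the windows there were 10 further peaks, 4 at Gpat3, 4 at Agpat2 and 2 at Dgat1. The closest of these lay 288 bases beyond the Gpat3 window with a mean of 106.73 normalized counts, and the closest peak inside a window, Dgat2 peak 23, lay 1419 bases from its edge with a mean of 1697.6. Distances below are from the midpoint of a peak to the nearest start site of the enzyme gene, negative when upstream.

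PPARγ, a nuclear receptor activated by fatty acid derivatives, pairs with RXR on DNA and is required for the formation and upkeep of adipocytes. In brown adipocytes, fatty acids released from lipoproteins or made in the cell are esterified to glycerol 3-phosphate and stored in many small droplets, from which they are later released as fuel for heat production. Glycerol-3-phosphate acyltransferases (GPAM in mitochondria, GPAT3 and GPAT4 in the endoplasmic reticulum) add the first acyl chain, AGPAT2 adds the next to form phosphatidic acid, the phosphatase LPIN1 turns this into diacylglycerol, and DGAT1 and DGAT2 add the last chain. Loss of AGPAT2 causes lipodystrophy in humans and mice, and loss of LPIN1 causes lipodystrophy in mice.

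The usual PPARγ-RXR element is a direct repeat of 2 half-sites spaced by 1 base, AGGTCANAGGTCA. For 9 strong or strongly varying peaks with a match within 2 mismatches, the stretch that came nearest to it is shown. Each stretch is a small part of its peak. Some other strong peaks described below came no nearer than 3 mismatches. They were Gpat3 peaks 3 and 10, Gpat4 peak 11, Agpat2 peak 6 and Dgat2 peaks 12 and 14. Both strands were searched in each peak, counting the 12 fixed letters and allowing up to 2 mismatches. Capitals mark the match, with 40 bases on either side, read 5′ to 3′ on the strand given, from the GRCm38.p6 (mm10) RefSeq genome.
Gpam peak 5 (chr19:55097793-55097885, plus strand): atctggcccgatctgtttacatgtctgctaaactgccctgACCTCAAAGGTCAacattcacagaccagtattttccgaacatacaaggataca
Gpat4 peak 8 (chr8:23192856-23192948, minus strand): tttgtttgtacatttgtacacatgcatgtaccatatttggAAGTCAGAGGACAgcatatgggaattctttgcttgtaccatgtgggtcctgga
Agpat2 peak 7 (chr2:26612103-26612195, minus strand): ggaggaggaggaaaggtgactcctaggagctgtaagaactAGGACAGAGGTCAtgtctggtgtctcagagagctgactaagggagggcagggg
Lpin1 peak 10 (chr12:16593866-16593958, minus strand): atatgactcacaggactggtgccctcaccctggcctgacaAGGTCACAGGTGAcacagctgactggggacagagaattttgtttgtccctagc
Lpin1 peak 15 (chr12:16620386-16620478, minus strand): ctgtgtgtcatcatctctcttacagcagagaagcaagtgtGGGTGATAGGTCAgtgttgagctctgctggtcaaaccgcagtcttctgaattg
Lpin1 peak 17 (chr12:16632153-16632245, minus strand): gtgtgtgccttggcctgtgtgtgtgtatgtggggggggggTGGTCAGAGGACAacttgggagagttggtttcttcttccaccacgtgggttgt
Dgat1 peak 1 (chr15:76510018-76510110, plus strand): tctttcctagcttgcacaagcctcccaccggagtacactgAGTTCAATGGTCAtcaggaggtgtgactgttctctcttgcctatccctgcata
Dgat2 peak 18 (chr7:99202268-99202360, plus strand): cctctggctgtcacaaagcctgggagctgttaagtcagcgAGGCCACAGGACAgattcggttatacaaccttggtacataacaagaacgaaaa
Dgat2 peak 21 (chr7:99214992-99215084, plus strand): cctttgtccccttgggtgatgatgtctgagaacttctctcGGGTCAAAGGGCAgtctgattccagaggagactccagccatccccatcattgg
The stretches at Gpam peak 5, Gpat4 peak 8, Lpin1 peak 10 and Dgat1 peak 1 lay within introns and the other 5 between genes. Lpin1 peak 10 and Agpat2 peak 7 differed from the element at 1 letter, C12G and T4A respectively, counted from the first base of the match with the letter of the element given first. The other 7 stretches differed at 2 letters, for example G3T and A8T at Dgat1 peak 1. A match within 2 mismatches was found in 38 of the 87 peaks (43.7%) and in 23.6% of the 66059 peaks on assembled chromosomes, but wide peaks hold more matches. Among peaks within 10% of the same width, the share with a match was 75.1% for Dgat1 peak 1, 67.4% for Gpat4 peak 8 and 32.3% for Dgat2 peak 18. A match within 1 mismatch was held by 47.1% of the 17 peaks as wide as Lpin1 peak 10 and by 28% of the 82 as wide as Agpat2 peak 7. Exact words for other factors were searched as well. The E-box CACGTG occurred in 30 of the 87 peaks (34.5%) and in 16.9% of all peaks, the EBF word TCCCNNGGGA in 6 and in 5.6% of all peaks, and neither TTGCGCAA (C/EBP) nor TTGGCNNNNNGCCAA (NF1) was found in the 87 peaks, against 0.459% and 0.239% of all peaks. The median width was 1618 bases for the 87 peaks and 813 for all peaks, and wide peaks held the E-box more often. Its share was 12.2% in peaks as wide as Gpat4 peak 4 and 55% in those as wide as Gpat4 peak 10. In the 5 promoter sequences from RefSeq that matched these genes (2 of Gpam and 1 each of Gpat3, Agpat2 and Lpin1, 250 bases before to 50 after the start), none held the element within 2 mismatches, which 3.86% of 32851 promoters did, and none held any of the 4 exact words. These matches describe letters and not binding sites.

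The libraries were of like depth, with 29572225 to 34264812 reads in peaks, and counts were scaled to the median of 31733719 reads after adjustment by TMM (trimmed mean of M values; factors 0.959 to 1.04), which gives the normalized counts used below. Where 8 values of a peak are given, the first 4 are those of ZT0, ZT3, ZT6 and ZT9 and the last 4 those of ZT12, ZT15, ZT18 and ZT21, each from 1 library. The ZT6 library stood apart, since it had the lowest TMM factor and the largest share of reads in the strongest 10% of all peaks, 48.1%, compared with 44.2% at ZT15, so that the counts of peaks, the times of highest binding and the sums over a gene are also given without it and after cyclic loess, a scaling that depends on peak strength. Peaks were present at each of 6 brown adipocyte genes and 6 general adipocyte genes, with summed mean normalized counts of 2319.5 to 22811 and 6860.9 to 19093. Skeletal muscle genes reached at most 415.74, with Ckm, Myh4 and Myod1 without a peak, blood and immune genes at most 322.71, with Cd3e and Hba-a1 without a peak, while of the hepatocyte genes Cyp2e1 had 4110.8 and the other three 67.53 to 536.71. The number of adipocyte nuclei in a pool and the binding per nucleus cannot be told apart in these data.

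All 7 genes had peaks with reads at every time point, and most of the peaks were at their highest in the light phase. Binding at each single time point was not tested, because peak calls in single libraries were not used and the input was not analysed. The highest of the 8 values lay at ZT3, ZT6 or ZT9 in 55 of the 87 peaks (63.2%), compared with 38.6% of all peaks, and 28 peaks (32.2%) had it at ZT6 itself, compared with 17.4% of all peaks. Strong peaks had it at ZT6 more often throughout the genome. In the strongest 10% of all peaks 36.2% were highest at ZT6 and 61.9% at ZT3, ZT6 or ZT9, and of the 27 of the 87 peaks among them 12 (44.4%) and 19 (70.4%) were. Of the 60 weaker peaks at these genes 16 (26.7%) and 36 (60%) were, compared with 15.3% and 36% of the weaker peaks of the genome. After cyclic loess 50 of the 87 peaks were highest at ZT3, ZT6 or ZT9 (57.5%; 37.8% of all peaks) and 24 at ZT6 (27.6%; 16.7%), but in the strongest 10% the ZT6 counts fell to 7 of 27 peaks and 19.3% of all peaks. Without the ZT6 library 48 of the 87 were highest at ZT3 or ZT9 (55.2%; 29.4% of all peaks). The lowest value lay between ZT15 and ZT0 in 74 of them (85.1%; 49.1% of all peaks), most often at ZT18 with 26. The highest value exceeded the lowest by 1.5-fold at the median peak, against 1.52-fold for all peaks, and this ratio ran from 1.13 at Gpat3 peak 10 to 4.37 at Gpam peak 1, a weak peak whose ratio was 2.84 without the ZT15 library.

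Oscillation was assessed by JTK-cycle with periods of 21 and 24 h, an exact rank test whose P is adjusted over the 15 combinations of period and phase within a peak, and a peak was called at an adjusted P below 0.05. By this rule 17 of the 87 peaks oscillated (19.5%), compared with 11.6% of all 66066 peaks. After a further Benjamini-Hochberg correction over all peaks no peak passed, the smallest corrected value being 0.0968. By a 24-h cosine fitted to the counts in edgeR (quasi-likelihood test, Benjamini-Hochberg over all peaks, below 0.05), 25 of the 87 were called (28.7%), compared with 13.4% of all peaks, and 16 peaks were called by both. Strong peaks were called more often throughout the genome. Of the 6607 peaks above the 90th percentile of mean count, 22% were called by JTK and 29.2% by the cosine, and of the 27 of the 87 peaks that belonged to them, 12 (44.4%) and 17 (63%) were called. Of the 60 weaker peaks at these genes, 5 and 8 were called. Their shares were 8.33% and 13.3%, beside 11.6% and 13.4% of all peaks. The latter include the strong peaks, and the shares among the weaker peaks of the genome alone are not given here. Of the 25 cosine calls, 11 were kept under all 4 other scalings, 7 without each library in turn, and 5 under both (Gpat3 peak 3, Lpin1 peaks 9 and 17 and Dgat2 peaks 6 and 18). The 12 lost after cyclic loess were those of Gpam peak 11, Gpat4 peaks 10 and 11, Agpat2 peaks 5, 6 and 7, Lpin1 peak 15, Dgat1 peak 1 and Dgat2 peaks 14, 15, 17 and 21. Each of these 12 was among the 27 strong peaks. So was every peak whose JTK call was lost after cyclic loess. These were Gpat3 peak 3, Gpat4 peak 8, Agpat2 peaks 6 and 7, Lpin1 peak 15 and Dgat2 peaks 14, 15 and 21. The share of the strong peaks of the genome called after cyclic loess was not computed.

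The LAG is the time at which the JTK fit is highest. Of the 17 oscillating peaks, 14 had a LAG from 3 to 10.5 h, compared with 45.6% of the 7686 oscillating peaks of the genome, and the remaining 3 had one from 12 to 16.5 h. With TMM, no oscillating peak at these genes had its LAG between 18 and 1.5 h, where 24.6% of the oscillating peaks of the genome lay. After cyclic loess, however, Dgat1 peak 1 remained called by JTK with a LAG of 1.5 h. After cyclic loess 12 of the 87 peaks were called, 9 of them among the 17, with 11% of all peaks called, and without the ZT6 library 19 were called, 12 of them among the 17, with 11.8% of all peaks called.

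**Figure D1:**
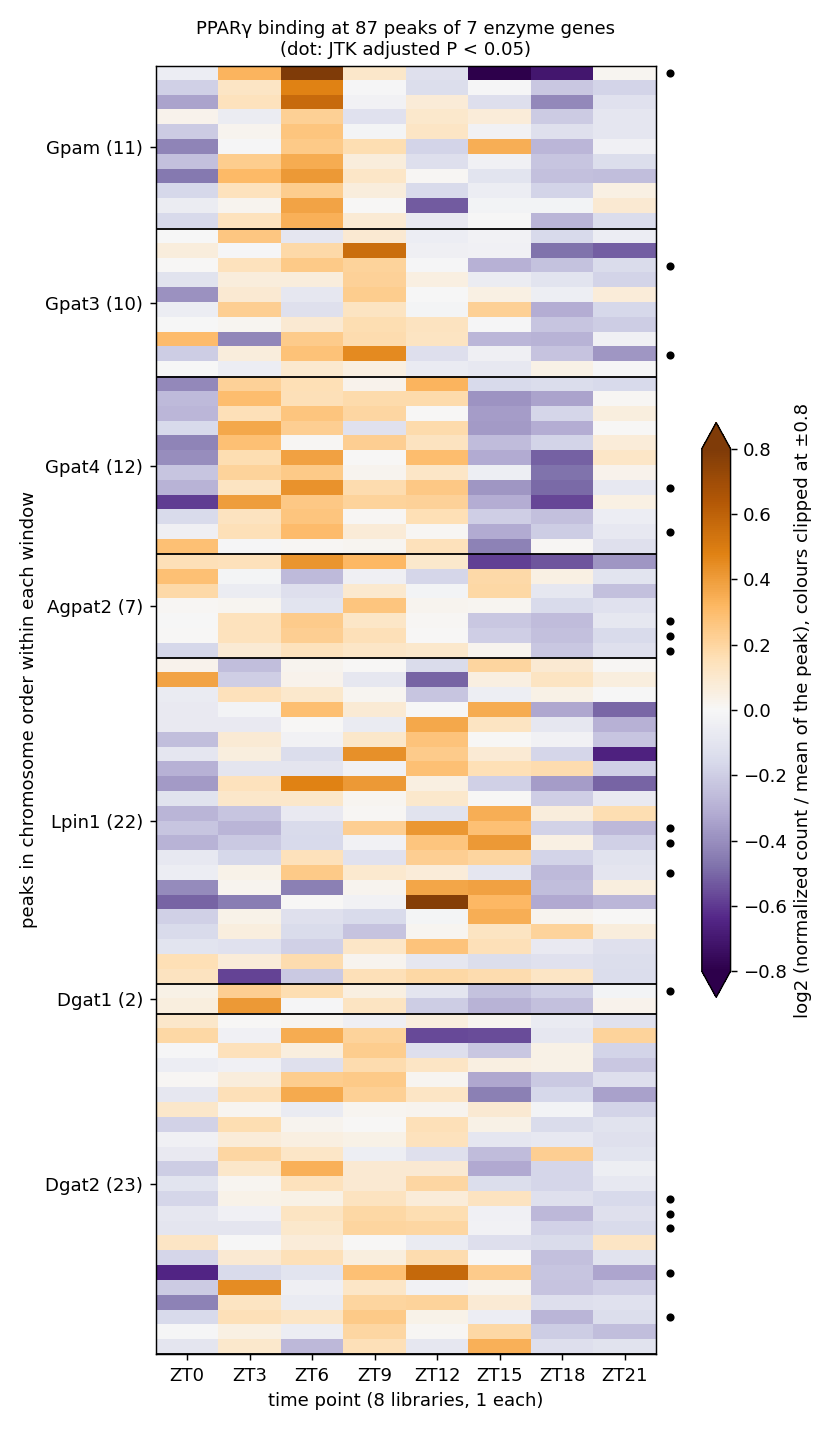
PPARγ binding at all 87 peaks, 1 row per peak in chromosome order within each window, and 1 column per library; the colour gives the log2 ratio of the normalized count to the mean of that peak, clipped at 0.8 either way. Orange (high) cells gather at ZT3 to ZT9 for Gpam, Gpat3, Gpat4 and Dgat1 and at ZT12 and ZT15 for many Lpin1 peaks, and the dots at the right mark the 17 peaks called by JTK.

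**Figure D2:**
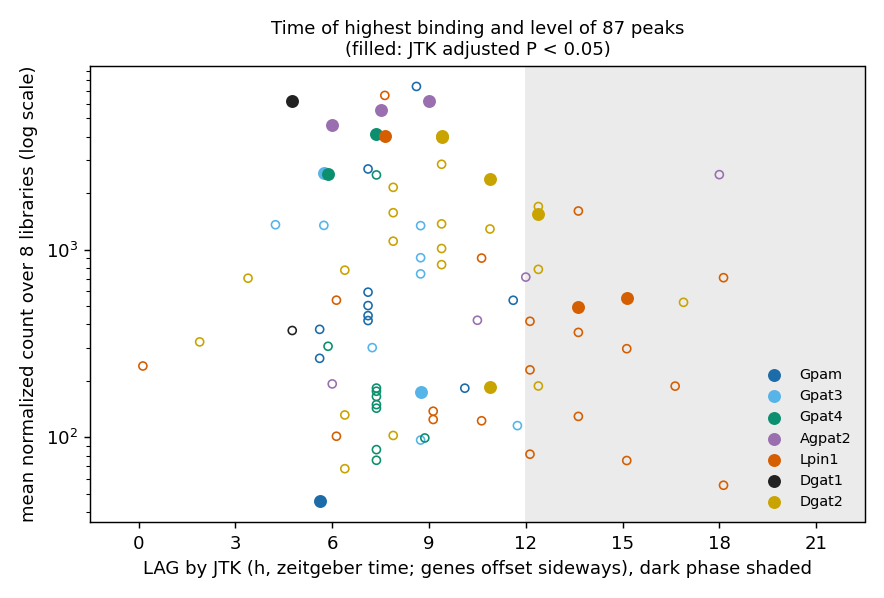
LAG by JTK (horizontal axis, h) against the mean normalized count over 8 libraries (vertical log axis) for the 87 peaks, coloured by gene; points are shifted sideways by gene so that they overlap less, and filled points are the 17 oscillating peaks. Filled points lie from 4.5 h (Dgat1 peak 1) to 15 h (Lpin1 peak 13), and Dgat2 peaks 14 and 21 lie on top of each other at 9 h.

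At Gpam, which encodes the mitochondrial acyltransferase, 10 of 11 peaks were highest at ZT6, and 9 of 11 after cyclic loess. Without the ZT6 library 7 of 11 were highest at ZT3 or ZT9. The strongest, peak 5 (chr19:55091424-55104228, 12.8 kb wide), covered the inner of the 2 curated starts, and its normalized counts were 6404, 7527, 8906 and 7341 from ZT0 to ZT9 and 8070.1, 7249.8, 6816 and 6950.0 from ZT12 to ZT21. The ZT6 value lay above the others and the ratio of highest to lowest was 1.39-fold (95% counting interval 1.35 to 1.44). This peak was not called (exact JTK adjusted P = 0.212, edgeR adjusted P = 0.0912), and after cyclic loess its LAG moved from 9 to 16.5 h. None of the 11 peaks covered the outer start.

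A weaker Gpam peak at the end of the gene varied more. Peak 3 (chr19:55068078-55071219), whose midpoint lay in exon 23, had normalized counts of 352, 492, 659 and 437 from ZT0 to ZT9 and 470, 407, 334 and 412 from ZT12 to ZT21. Its values at ZT0 and ZT18 were the lowest and that at ZT6 stood alone at the top, a ratio of 1.97-fold (95% counting interval 1.73 to 2.25), with an exact JTK adjusted P of 0.0826. Without the ZT6 library the ratio was 1.47 and the adjusted P 0.452. The only Gpam peak called by JTK was peak 1 (chr19:55054636-55055162), 44.6 kb from the inner start and beyond the end of the gene, with 43.9, 57.1, 80.2 and 49.2 from ZT0 to ZT9 and 41.9, 18.3, 28 and 46 from ZT12 to ZT21. These are small counts, lowest at ZT15 and ZT18, and the ratio was 4.37-fold (95% counting interval 2.66 to 7.2). Without the ZT15 library the ratio was 2.84. The adjusted P of 0.000744 is the smallest that the exact JTK test gives with 8 time points, the LAG was 6 h, and the peak remained called by JTK under each of the 4 other scalings and without each library in turn. Its edgeR call (adjusted P = 0.0188) was lost without ZT6, ZT15 or ZT18. Of the other 8 peaks, with means of 183 to 2692, 2 passed the edgeR cosine, among them peak 11, which lay 11.4 kb upstream of the outer start (adjusted P = 0.0254, 0.246 after cyclic loess).

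Gpat3, an acyltransferase of the endoplasmic reticulum that is abundant in adipocytes, was bound most in an intron. Peak 3 (chr5:100859827-100862304, intron 3, 14.8 kb downstream of the start) had normalized counts of 2577, 2831, 3059 and 2977 from ZT0 to ZT9 and 2553, 2092, 2173 and 2319 from ZT12 to ZT21. All values from ZT0 to ZT12 lay above all values from ZT15 to ZT21. The ratio was 1.46-fold (95% counting interval 1.38 to 1.54), and the peak was called by both tests (exact JTK adjusted P = 0.026, LAG 6 h; edgeR adjusted P = 0.00396). The JTK call was lost after cyclic loess (adjusted P = 0.0826) and without the ZT6 or ZT12 library, whereas the edgeR call was kept under all 4 scalings and without each library.

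The start of Gpat3 behaved otherwise. Peak 1 (chr5:100845202-100847162), centred 47 bases upstream of the start, had normalized counts of 1355, 1624, 1275 and 1445 from ZT0 to ZT9 and 1308, 1333, 1216 and 1309 from ZT12 to ZT21, of which only the ZT3 value stood out, and it was not called (exact JTK adjusted P = 1). Peak 9 (chr5:100896063-100896910, intron 12), a small peak nearer to the start of the uncharacterized Gm36793, had 151, 182, 211 and 238 from ZT0 to ZT9 and 159, 169, 148 and 134 from ZT12 to ZT21, a ratio of 1.78-fold (95% counting interval 1.44 to 2.2) and a LAG of 9 h (exact JTK adjusted P = 0.026; edgeR adjusted P = 0.047). Its JTK call was lost with library totals alone (0.0826) and without any of ZT0, ZT6, ZT9, ZT18 and ZT21, and its edgeR call was kept under 2 of 4 other scalings and without 2 of the 8 libraries. The remaining 7 peaks had means of 96.8 to 1348 and were not called, and 6 of them were highest between ZT3 and ZT9. Peak 10, at 63.5 kb, was the flattest of all 87 with a ratio of 1.13.

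Gpat4 encodes the other acyltransferase of the endoplasmic reticulum, and its 3 strong peaks shared a profile with high values at ZT3 to ZT12. Peak 8 (chr8:23190245-23195859, intron 1, 15.4 kb downstream of the start), the strongest, had normalized counts of 3384, 4536, 5578 and 4659.9 from ZT0 to ZT9 and 4939.9, 3187, 2929.7 and 3926 from ZT12 to ZT21. ZT6 was highest, ZT15 and ZT18 were lowest, and the ratio of 1.9-fold (95% counting interval 1.82 to 1.99) was the largest among the Gpat4 peaks called (exact JTK adjusted P = 0.026, LAG 7.5 h; edgeR adjusted P = 0.00967). Peak 10 (chr8:23205613-23210738), which covered the start, had 2248, 2746, 3004 and 2523 from ZT0 to ZT9 and 2797, 2179.9, 2107 and 2411 from ZT12 to ZT21. ZT6 and ZT12 were again the highest and ZT15 and ZT18 the lowest, at a smaller ratio of 1.43-fold (95% counting interval 1.35 to 1.51), and JTK did not call it (exact adjusted P = 0.0826; edgeR adjusted P = 0.0494). The edgeR call of peak 10 was lost under all 4 other scalings and without 6 of the 8 libraries in turn. Peak 11 (chr8:23212915-23216372), 6.2 kb upstream, had 2464, 2818, 3128 and 2675 from ZT0 to ZT9 and 2548, 2032, 2204 and 2405 from ZT12 to ZT21. It was called by both tests (exact JTK adjusted P = 0.026, LAG 6 h; edgeR adjusted P = 0.0112), and its JTK call was kept under all 4 other scalings but lost without the ZT3, ZT6 or ZT9 library, and its edgeR call was lost without ZT6, ZT15 or ZT18. The JTK call of peak 8 was lost after cyclic loess and without any of ZT0, ZT6, ZT15, ZT18 and ZT21. The other 9 peaks were small, with means of 75.6 to 305.9 and ratios of 1.54 to 1.98, and none was called by either test.

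Agpat2, the enzyme that makes phosphatidic acid in adipocytes, carried 3 strong neighbouring peaks in and upstream of the gene that all oscillated by both tests. In a further group around the neighbouring Egfl7, JTK called no peak and the cosine called peak 1. Peak 5 (chr2:26599335-26605681) covered the start and had normalized counts of 4609, 5087, 5458 and 5004 from ZT0 to ZT9 and 4656, 3957, 3862 and 4359.8 from ZT12 to ZT21. Peak 6 (chr2:26606057-26610688), 4 kb upstream, had 5552, 6112, 6494 and 6169 from ZT0 to ZT9 and 5563, 4837, 4679 and 4993 from ZT12 to ZT21, and peak 7 (chr2:26611179-26619782), 11.1 kb upstream and the strongest of the window, had 5547, 6594, 6847 and 6739.8 from ZT0 to ZT9 and 6674, 6318, 5325 and 5727 from ZT12 to ZT21. In each of the 3 the highest library was ZT6 and the lowest ZT18, and the ratios were 1.41, 1.39 and 1.29. The exact JTK adjusted P was 0.00595 for each, with LAGs of 6, 7.5 and 9 h, and the edgeR adjusted P was 0.00556, 0.00296 and 0.0252. All 3 remained called by JTK without each library in turn. After cyclic loess peak 5 kept its JTK call (adjusted P = 0.00595) at a ratio of 1.13 but lost its edgeR call (0.183), whereas peaks 6 and 7 lost both (JTK 0.212 and 0.915) and the LAG of peak 7 moved to 15 h. The edgeR call was also lost without ZT18 for peak 5, and without ZT6, ZT12 or ZT18 and with library totals alone for peak 7.

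Toward the end of Agpat2, peaks lay over Egfl7, a gene of endothelial cells. Peak 1 (chr2:26583134-26584170, intron 1 of Egfl7) had normalized counts of 214, 213, 258 and 240 from ZT0 to ZT9 and 207, 128, 133 and 148 from ZT12 to ZT21, with every value from ZT0 to ZT12 above every value from ZT15 to ZT21. Its ratio of 2.01-fold (95% counting interval 1.63 to 2.48) was the largest in the window, and it passed the edgeR cosine (adjusted P = 0.00888, 0.00931 after cyclic loess) but not JTK (exact adjusted P = 0.0826). Peak 2, which is broad and spans starts of Egfl7 and the microRNA genes Mir126a and Mir126b, was lowest at ZT6 (2090.4) and highest at ZT0 (3057.9) and was called by neither test. Neither were peaks 3 and 4.

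Lpin1, whose product is also known as a nuclear coregulator, had peaks that differed in time. Of its 22 peaks, 14 were highest at ZT12 or ZT15 and 3 at ZT6. Of all peaks, 10.6% were highest at ZT12, 18.1% at ZT15 and 17.4% at ZT6. JTK called 3 of the 22, near the share of 11.6% of all peaks. Of these 3, 2 had a LAG in the dark phase and 1 in the light phase. The strongest, peak 10 (chr12:16580965-16594607, 13.6 kb wide), covered the inner start and had normalized counts of 6154, 7173, 7152 and 6715 from ZT0 to ZT9 and 7133, 6662, 5779.8 and 6319.5 from ZT12 to ZT21. It varied little, by 1.24-fold (95% counting interval 1.2 to 1.28), and was called by neither test (exact JTK adjusted P = 0.467; edgeR adjusted P = 0.122).

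The outer start of Lpin1 and an intronic site next to it were bound most around and after lights off. Peak 13 (chr12:16610629-16612375), which covered the outer start, had normalized counts of 454, 480, 497 and 547 from ZT0 to ZT9 and 670, 739, 576 and 487 from ZT12 to ZT21, and peak 12 (chr12:16605545-16607240, intron 1, 4.6 kb downstream of that start) had 422, 405, 445 and 578 from ZT0 to ZT9 and 659, 602, 436 and 409 from ZT12 to ZT21. Both rose from the light phase to ZT12 and ZT15, by 1.63-fold and 1.62-fold from lowest to highest. Both were called by JTK (exact adjusted P = 0.026 with a LAG of 15 h, and 0.00595 with a LAG of 13.5 h) and by edgeR (adjusted P = 0.0125 and 0.00975), and the JTK calls were kept under all 4 other scalings and without each library in turn, while the edgeR call was lost without ZT15 for peak 13 and without ZT12 for peak 12.

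Upstream of Lpin1, a pair of peaks ran at different times. Peak 15 (chr12:16616993-16621576), 8.3 kb upstream, had normalized counts of 3869, 4115, 4772 and 4289 from ZT0 to ZT9 and 4221, 3768, 3346 and 3760.0 from ZT12 to ZT21, highest at ZT6 and lowest at ZT18 (exact JTK adjusted P = 0.00595, LAG 7.5 h; edgeR adjusted P = 0.0208). Peak 17 (chr12:16629845-16632220), 20.1 kb upstream, had 1128, 1180.0, 1611 and 1576 from ZT0 to ZT9 and 2758, 1997, 1284 and 1328 from ZT12 to ZT21. The ZT12 and ZT15 values stood above the other 6, and the ratio of 2.45-fold (95% counting interval 2.28 to 2.62) was the largest among peaks with a mean of at least 100. By the cosine this peak was called (edgeR adjusted P = 0.00441, fitted maximum at 12.1 h, fitted fold 2.05), but JTK gave an exact adjusted P of 0.0826, which became 0.026 after cyclic loess, 0.044 with a period of 24 h only and 0.0417 without ZT6. The JTK call of peak 15 was lost after cyclic loess (0.915) and its edgeR call there, with library totals alone and without ZT6, ZT15 or ZT18. The other 17 peaks had means of 55.6 to 902.2, of which 11 were highest at ZT12 or ZT15, and only peak 9 passed the cosine (edgeR adjusted P = 0.00782, fitted maximum at 7.67 h).

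Dgat1, which also esterifies other acyl acceptors such as retinol, had the simplest pattern, with 94.3% of its reads in 1 peak. Peak 1 (chr15:76506377-76513146, 6.8 kb wide) covered the start and had normalized counts of 6349.7, 7241, 6952 and 6432 from ZT0 to ZT9 and 5782, 5227, 5419.5 and 6086 from ZT12 to ZT21. Its values were high from ZT0 to ZT9 and low at ZT15 and ZT18, a ratio of 1.39-fold (95% counting interval 1.34 to 1.43). It had the earliest LAG among the oscillating peaks, 4.5 h (exact JTK adjusted P = 0.00595; edgeR adjusted P = 0.00547), and its JTK call was kept under all 4 other scalings and without each library, with the LAG at 1.5 h after cyclic loess. Its edgeR call was kept without each library but lost after cyclic loess (adjusted P = 0.0709). Peak 2 (chr15:76514393-76515543), 3 kb upstream, had 386, 493, 369 and 405 from ZT0 to ZT9 and 323, 303, 313 and 378 from ZT12 to ZT21, also highest at ZT3 and lowest at ZT15 (exact JTK adjusted P = 0.212; edgeR adjusted P = 0.0564).

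Dgat2, the diacylglycerol acyltransferase of lipid droplets and endoplasmic reticulum, was bound at many sites of like strength, and its strongest peak held 13.6% of its reads. The strongest, peak 21 (chr7:99213536-99219665), lay 33.9 kb upstream and 22 kb from the start of Mogat2, a monoacylglycerol acyltransferase, and had normalized counts of 3590.0, 4459, 4372 and 4754 from ZT0 to ZT9 and 4113, 3875, 3304 and 3651 from ZT12 to ZT21. It was highest at ZT9 and lowest at ZT18 by 1.44-fold (95% counting interval 1.38 to 1.51) (exact JTK adjusted P = 0.026, LAG 9 h; edgeR adjusted P = 0.0123). At the start itself, peak 12 (chr7:99180727-99184412, exon 1) had 1997, 2175, 2369.5 and 2286 from ZT0 to ZT9 and 2462, 1957, 1908 and 2038 from ZT12 to ZT21, with ZT12 highest, and was not called (exact JTK adjusted P = 0.0826; edgeR adjusted P = 0.0805).

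Between these sites, 3 peaks just upstream of Dgat2 had a LAG of 9 or 10.5 h. Peak 14 (chr7:99186824-99190463), 5.9 kb upstream, had normalized counts of 3743, 3877, 4324 and 4512 from ZT0 to ZT9 and 4444, 3875, 3286 and 3635 from ZT12 to ZT21, and peak 15 (chr7:99190625-99194077), 9.6 kb upstream, had 2222, 2227, 2558 and 2743 from ZT0 to ZT9 and 2725, 2338, 2091 and 2138 from ZT12 to ZT21. In both the values at ZT6, ZT9 and ZT12 lay above the other 5, with ratios of 1.37 and 1.31 and LAGs of 9 and 10.5 h (exact JTK adjusted P = 0.026 for each; edgeR adjusted P = 0.0195 and 0.0212). The small peak 13 (chr7:99185577-99186125), 3.1 kb upstream, had 164, 189, 190 and 203 from ZT0 to ZT9 and 194, 203, 170 and 166 from ZT12 to ZT21 and an exact JTK adjusted P of 0.026 with a LAG of 10.5 h. Its ratio was 1.23-fold (95% counting interval 1 to 1.52), a difference within counting error, and edgeR did not call it (adjusted P = 0.368). The JTK calls of peaks 13, 14, 15 and 21 each depended on the scaling or on single libraries, since peaks 14 and 21 lost theirs after cyclic loess, peak 15 with library totals alone, DESeq2 size factors or cyclic loess, and peak 13 with library totals alone, DESeq2 size factors or upper-quartile factors. Leaving out 1 library ended the JTK call of peak 13 in 5 of 8 cases, of peak 14 in 3, of peak 15 in 6 and of peak 21 in 5.

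The largest daily change at Dgat2 was 19.5 kb upstream. Peak 18 (chr7:99201379-99203131), which is 1.8 kb wide, had normalized counts of 988, 1388, 1435 and 1884 from ZT0 to ZT9 and 2291, 1822, 1318 and 1224 from ZT12 to ZT21. They rose from ZT0 to ZT12 at each step and then fell at each step to ZT21, a ratio of 2.32-fold (95% counting interval 2.15 to 2.5). This peak had the smallest edgeR adjusted P of the 87 (0.000991, fitted maximum at 11.4 h, fitted fold 1.96) and an exact JTK adjusted P of 0.00595 with a LAG of 12 h. Both calls were kept under all 4 other scalings and without each library in turn. Of its neighbours, peak 17, 16.7 kb upstream, had 2531.9 at ZT0 and was also highest at ZT12 with 3209.9 (edgeR adjusted P = 0.0482, lost under all 4 other scalings; exact JTK adjusted P = 0.212), and peak 19, 22.2 kb upstream, was highest at ZT3 with 1384.6 (exact JTK adjusted P = 0.915). Of the other 17 Dgat2 peaks, with means of 68.1 to 2852, 3 passed the cosine (peaks 5, 6 and 17). Peaks 18 at Dgat2 and 17 at Lpin1 had the highest ratios among the 27 peaks above the 90th percentile, and both had their highest library at ZT12; whether their time differed from that of their neighbours was not tested.

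**Figure D3:**
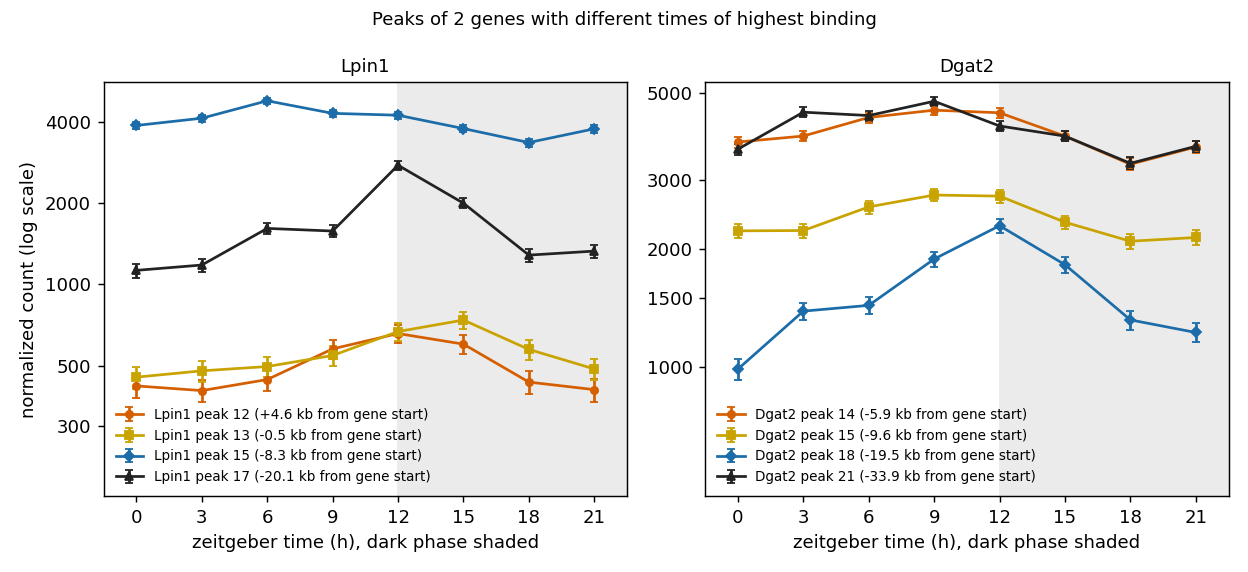
Normalized counts (vertical log axes) by time for 4 peaks each of Lpin1 (left) and Dgat2 (right), with distances from the gene start in the legend; bars are 95% counting intervals and do not cover the spread between animals. Lpin1 peaks 12, 13 and 17 and Dgat2 peak 18 are highest at ZT12 or ZT15, while Lpin1 peak 15 is highest at ZT6 and Dgat2 peaks 14, 15 and 21 at ZT9.

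Reads were also summed over all peaks of a gene, to see the binding of each window as a whole. Gpam had normalized counts of 11734, 14186, 16709.5 and 13616 from ZT0 to ZT9 and 13828, 13248, 11889 and 12545 from ZT12 to ZT21, with ZT6 at 124% of its mean over the day. Gpat4 had 9336, 11696, 13262 and 11322 from ZT0 to ZT9 and 11829.5, 8521, 8416 and 10119 from ZT12 to ZT21, with ZT6 at 126% of its mean and ZT18 at 79.7%, which was the largest ratio of highest to lowest, 1.58. These sums thus stood highest at midday for both genes. After cyclic loess ZT6 was at 113% for Gpam and 117% for Gpat4, with ratios of 1.28 and 1.36. Without the ZT6 library Gpam was highest at ZT3 (109%, ratio 1.21) and Gpat4 at ZT12 (116%, ratio 1.41).

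Dgat1 was highest earlier, at ZT3 (7733.9), and lowest at ZT15 (5529.93). The sum for Agpat2 ran from 17643.7 at ZT18 to 22194.3 at ZT6. For Gpat3 it ran from 7960.01 at ZT18 to 10080.1 at ZT9, and for Dgat2 from 25971.2 at ZT18 to 32971 at ZT9. Lpin1 was highest latest, at ZT12 (20435.8), with a lesser maximum of 19318.6 at ZT6, and lowest at ZT18 (15971.8). In every gene the 95% counting intervals of the highest and lowest sums were apart, and ratios other than that of Gpat4 ran from 1.26 to 1.42. After cyclic loess the highest library of Agpat2 and Lpin1 moved to ZT15, at ratios of 1.09 and 1.21. Without the ZT6 library that of Agpat2 was ZT9 (ratio 1.24) and that of Lpin1 remained ZT12 (1.28). For Gpat3, Dgat1 and Dgat2 the highest library was the same in both settings. Their ratios were 1.19, 1.24 and 1.17 after cyclic loess and 1.27, 1.4 and 1.27 without ZT6. The lowest library moved after cyclic loess from ZT15 to ZT12 for Dgat1 and from ZT18 to ZT0 for Lpin1.

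**Figure D4:**
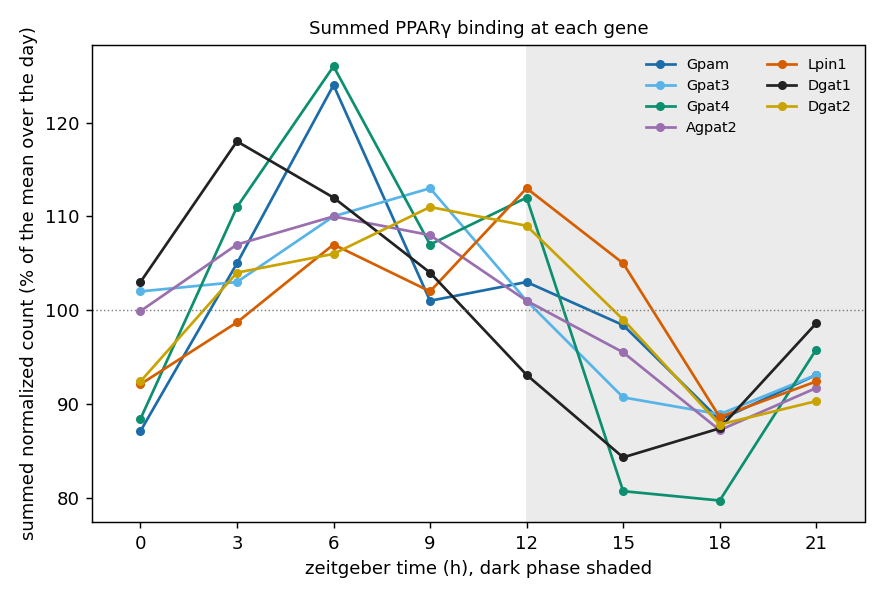
Normalized counts summed over the peaks of each gene, as a percentage of the mean over the day of that gene (vertical axis), by zeitgeber time; 1 library per point, dark phase shaded. Dgat1 is highest at ZT3, Gpam, Gpat4 and Agpat2 at ZT6, Gpat3 and Dgat2 at ZT9 and Lpin1 at ZT12, and 6 of the 7 genes are lowest at ZT15 or ZT18.

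Per kb of peak, the mean level was 828 normalized counts at Dgat1 (698 to 976 over the day), 620 at Agpat2 (541 to 680), 576 at Gpat3 (512 to 648), 524 at Dgat2 (460 to 584), 514 at Gpat4 (409 to 645), 442 at Lpin1 (391 to 501) and 427 at Gpam (372 to 529). Dgat1 stood above all others at all times, since its lowest value exceeded the highest of each. The ranges of the other neighbours in this order overlapped. These levels depend on how widely peaks were drawn, from 7.9 kb at Dgat1 to 56.4 kb at Dgat2.

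A share of reads within a gene does not depend on the scaling between libraries, and the share in the peak nearest to the start was therefore followed as well. At Agpat2 it was 22.8%, 23.5%, 24.6% and 22.9% from ZT0 to ZT9 and 22.8%, 20.5%, 21.9% and 23.5% from ZT12 to ZT21, so that the start peak held its largest part of the reads of the window at ZT6 and its smallest at ZT15 (exact JTK adjusted P = 0.00595, LAG 6 h). The reads of this window include those of Agpat2 peak 2, nearest to the start of Mir126a. That peak was lower at ZT6 (2090.4 normalized counts) than at ZT15 (2847.4). The share among the peaks nearest to Agpat2 alone was not tested. At Lpin1 the outer start held 2.74%, 2.7%, 2.58% and 2.96% from ZT0 to ZT9 and 3.28%, 3.9%, 3.6% and 2.93% from ZT12 to ZT21. It was highest at ZT15 and lowest at ZT6 (exact JTK adjusted P = 0.026, LAG 16.5 h).

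At Gpat4 the share was lowest at ZT9, 22.3% (95% Wilson interval 21.5 to 23.1), and highest at ZT15, 25.6% (24.7 to 26.5), with an exact JTK adjusted P of 0.026 and a LAG of 18 h. Shares at Gpam (53.1% to 58.4%), Gpat3 (13% to 17.7%), Dgat1 (93.6% to 95%) and Dgat2 (6.68% to 7.63%) were not called, with exact adjusted P of 0.467, 1, 1 and 1. Thus 3 of 7 shares were called, and with a period of 24 h only, or without ZT12, 1 of 7 was, Lpin1 and Agpat2 respectively. These 7 tests were not corrected for one another.

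**Figure D5:**
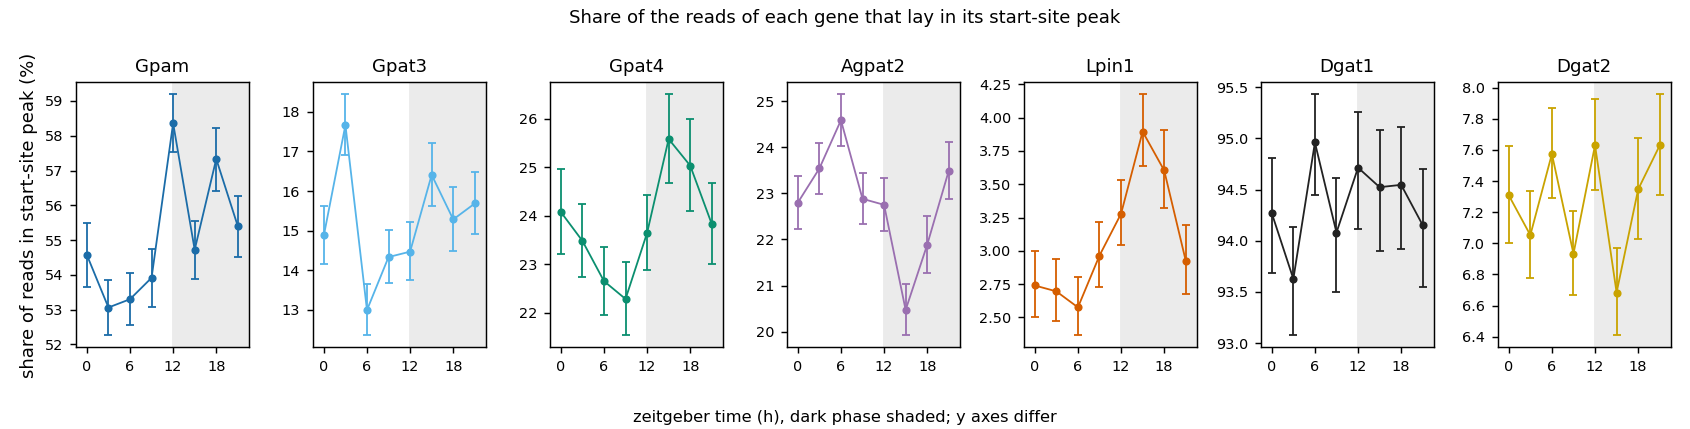
Share of the reads in all peaks of the window of each gene that lay in the peak nearest to its start (percent, vertical axes differ and do not start at 0), by zeitgeber time, with 95% Wilson counting intervals. Agpat2 is highest at ZT6 (24.6%), whereas Gpat4 (25.6%) and Lpin1 (3.9%) are highest at ZT15.

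Of 16 other genes of triglyceride synthesis and droplet formation, 14 were nearest to at least 1 peak. Of their 60 peaks 11 oscillated by JTK (18.3%, compared with 11.6% of all peaks) and 11 by the cosine (18.3%, compared with 13.4%). Gpat2 and Fitm1 had none. The strongest peak was that of Gpd1, which supplies glycerol 3-phosphate. It had 7029.3 normalized counts at ZT18 and 11993 at ZT6, a ratio of 1.71 (exact JTK adjusted P = 0.00595, LAG 7.5 h; edgeR adjusted P = 0.0017). Gk, glycerol kinase, had 4 of 9 peaks called by JTK, and its strongest, at the start, ran from 677.13 at ZT15 to 1150.5 at ZT6 (exact JTK adjusted P = 0.00595). Bscl2 (seipin, a protein of droplet formation) ran from 3505.3 at ZT15 to 5155.4 at ZT6 in its strongest peak (exact JTK adjusted P = 0.026). By contrast, the strongest peak of Agpat1, a relative of Agpat2 present in most tissues, ran only from 2942 to 3335.5 (exact JTK adjusted P = 1). Mogat2 had 5 peaks, 4 of which are among the Dgat2 peaks above and are counted in both groups, the called Dgat2 peak 21 included. The strongest peak was highest at ZT3, ZT6 or ZT9 for Agpat4, Lclat1, Lpin2, Mogat2, Gpd1, Gpd1l, Gk and Bscl2. It was highest at ZT12 or ZT15 for Agpat1, Agpat5 and Lpin3, and at ZT18, ZT21 or ZT0 for Mogat1, Agpat3 and Fitm2.

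Among 7214 genes outside the windows with a summed mean of at least 1000 normalized counts, the 2 whose summed binding over the 8 time points was most like that of each enzyme gene (Pearson r of log2 sums, a description over 8 points that share the same libraries) were Tectb and A430090L17Rik for Gpam (r = 0.99 and 0.976), Slc2a6 and Anxa6 for Gpat3 (0.983 and 0.98) and Psma1 and Rpusd3 for Gpat4 (0.992 and 0.991). For Agpat2 they were Akt2 and Prkce (0.979 and 0.976), for Lpin1 Mpc1 and Fbxo31 (0.961 and 0.955), for Dgat1 C1qtnf12 and Col4a1 (0.986 and 0.984) and for Dgat2 Ovol3 and Iqch (0.988 and 0.984). Profiles this close were common, since r exceeded 0.9 for 33 genes (Lpin1) to 391 genes (Gpat4).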

How the data were processed

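PPARγ ChIP-sequencing was performed on pooled iBAT at 8 time points, 1 library each. The authors mapped reads to mm10 with BWA-MEM (version 0.7.17), called peaks with MACS2 (version 2.1.2) and obtained the reads of each peak by HTSeq-count (version 1.99.2), according to the methods and the submitters' processing notes. The deposited values are raw read counts for peaks that passed in at least 6 of 8 samples, not normalized. Handling of duplicate reads is not given in the sources used here.

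Counts were scaled by TMM-adjusted library totals (edgeR version 4.0.16, R version 4.3.3). The study names edgeR for normalization but not the method within it. JTK-cycle was written anew in Python (version 3.11.15) with its exact null distribution, and the 24-h cosine was tested by edgeR quasi-likelihood (5 residual degrees of freedom, dispersion 0.0116), both on all 66066 peaks and tested on simulated data. With no replicates, the spread around the cosine is the only error. Wilson 95% intervals cover counting error only, and reads are not independent molecules. No filter on low counts was applied.

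Shown in full (26 of 87) were, in each window, the strongest peak, the peak nearest to the start, the peak with the largest ratio among means of at least 100 and every peak called by JTK. Peaks 2, 3 and 4 of Agpat2, peak 11 of Gpam, peak 10 of Gpat3, peak 9 of Lpin1 and peaks 5, 6, 17, 19 and 23 of Dgat2 were named after their values were seen. The members and lists were chosen with earlier results of these data known. Alternatives were 4 other scalings (library totals alone, DESeq2 version 1.42.0 size factors, upper-quartile factors and cyclic loess), leaving out each library, a period of 24 h only, stricter thresholds, filters, membership by nearest start site, and a DESeq2 likelihood ratio test. Times of highest binding and sums under cyclic loess and without ZT6 were added after seeing the data. Annotation was RefSeq for GRCm38.p6. Peak positions are printed as the authors' table gives them.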

Additional observations from a re-analysis of the deposited data

How the results depend on the processing

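The number of oscillating peaks among the 87 (17 by JTK) stayed within 1.5 times under the 4 other scalings (12 to 18), with a period of 24 h only (22), with a mean count of at least 100 (15 of 79 peaks), in the strongest 50% of all peaks (14 of 59) and with membership by nearest start site (16 of 74), and ran from 13 to 21 without 1 library, but fell to 8 at an adjusted P below 0.01. The number called by the edgeR cosine (25) fell to 13 after cyclic loess and to 11 at an adjusted P below 0.01 and ran from 9 to 26 without 1 library. It was 9 without ZT18 and 16 without ZT6 or ZT15. Over all peaks the cosine called 8842, and 3067 to 11203 without 1 library: 4280 without ZT6, 5609 without ZT9, 5694 without ZT12, 3730 without ZT15 and 3067 without ZT18. The DESeq2 likelihood ratio test called 26 of the 86 peaks for which it gave an adjusted P, 24 of them shared with edgeR. Start-site shares called fell from 3 to 1 with a period of 24 h only and ran from 1 to 3 without 1 library (1 without ZT12). The cause of these moves was not tested.

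Of the 26 peaks shown in full, the LAG moved by more than 1.5 h after cyclic loess in 4 (Gpam peak 5, Agpat2 peak 7, Lpin1 peak 10 and Dgat1 peak 1) and under none of the other 3 scalings or a period of 24 h only. Without 1 library it moved in 5 of 208 cases, namely for Gpat3 peak 1 without ZT3, ZT12 or ZT18 and Dgat1 peak 2 without ZT12 or ZT18. With 1 library per time point, differences between animals and between days of collection or immunoprecipitations cannot be told apart from time of day. No paired analysis was possible because no time point had a second library.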

Other observations

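Peaks within 10 kb outside the windows, which belong to no gene of the report, included 2 near Egfl7 that passed the edgeR cosine over all peaks. The peak at chr2:26578216-26579718 had a mean of 342.95 normalized counts and a ratio of highest to lowest of 2.4 (edgeR adjusted P = 0.0111), and the peak at chr2:26571368-26572350 a mean of 183.67 and a ratio of 2.08 (edgeR adjusted P = 0.0168). JTK called neither (exact adjusted P = 0.212 for both).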
